A study of Mus musculus with 2 samples.

Results

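The rows of 7 globin genes were followed through single-cell RNA-seq of CD31+CD44+ cells from the caudal part of E10 mouse embryos. They were the embryonic genes Hbb-bh1, Hbb-y and Hba-x and the adult genes Hba-a1, Hba-a2, Hbb-bs and Hbb-bt, chosen by symbol from 24543 genes in the count tables. All 7 symbols were present, and 6 of them had at least 1 UMI, the molecular tag that counts 1 captured transcript. Conditional knockout (cKO) embryos were Vec-Cre;Nupr1 fl/fl, in which a Cdh5-driven Cre removes the nuclear factor gene Nupr1 from the endothelial stage on, and controls were littermate Nupr1 fl/fl or Nupr1 fl/+ embryos. Both genotypes carried hashtags and shared 1 pool and 1 lane in each of 2 replicates, on a C57BL/6 background, and the number of embryos in a pool was not given in the sources used here. The files held 678 cells with 32430285 UMIs in replicate 1 and 1461 cells with 91511039 UMIs in replicate 2, with a median of 40962 and 59931 UMIs per cell. No cell barcode was shared between the replicates (0 barcodes). The p-values measure the spread between sums of cells, split by replicate and genotype, that come from these 2 pools. The main fits had no term for the pool, and nothing says how many embryos a pool held. Nupr1 itself was at 14.4 and 21.5 CPM (UMIs scaled to counts-per-million) in control cells and at 0.573 and 1.50 in cKO cells of replicates 1 and 2.

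Hemoglobin is built from alpha-type and beta-type globin chains, which are encoded by separate gene clusters. In the mouse embryo the first, primitive red cells of the yolk sac make Hba-x (zeta globin) with Hbb-bh1 and Hbb-y, and a switch to the adult genes follows as liver erythropoiesis begins. Globin mRNA is among the most abundant of all mRNAs in red cells, so RNA that leaks from them is a well-known background in droplet libraries. For that reason the number of globin UMIs per cell and the ratio between the globin genes are given below beside the CPM.

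The beta-type genes lie on chromosome 7 and the alpha-type genes on chromosome 11. In GENCODE M21 (GRCm38), Hbb-bh1 spans chr7:103841637-103843164 and Hbb-y spans chr7:103851749-103853216, both on the minus strand. Hba-x spans chr11:32276400-32278116 on the plus strand. The last 90 coding bases of the 3 embryonic genes and of 1 adult gene of each cluster are shown because libraries of this kind read transcripts from their 3′ ends, and these letters show how far a read from this stretch can be given to 1 gene. All 5 stretches are in the last exon of their gene. Capitals mark the bases of Hbb-y and Hbb-bs that differ from Hbb-bh1 and the bases of Hba-a1 that differ from Hba-x.
Hbb-bh1, chr7:103841755-103841844, minus strand: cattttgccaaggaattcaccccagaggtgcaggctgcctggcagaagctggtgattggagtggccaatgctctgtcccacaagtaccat
Hbb-y, chr7:103851877-103851966, minus strand: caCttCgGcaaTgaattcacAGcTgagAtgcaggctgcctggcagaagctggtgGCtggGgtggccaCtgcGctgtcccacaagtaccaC
Hbb-bs, chr7:103826668-103826757, minus strand: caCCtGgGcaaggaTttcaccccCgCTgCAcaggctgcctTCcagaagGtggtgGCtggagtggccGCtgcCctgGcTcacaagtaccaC
Hba-x, chr11:32277916-32278005, plus strand: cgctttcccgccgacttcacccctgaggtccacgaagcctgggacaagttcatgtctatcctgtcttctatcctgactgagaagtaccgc
Hba-a1, chr11:32284299-32284388, plus strand: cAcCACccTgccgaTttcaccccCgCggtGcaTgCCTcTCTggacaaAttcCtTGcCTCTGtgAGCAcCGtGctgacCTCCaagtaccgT

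Hbb-y differed from Hbb-bh1 at 14 of these 90 bases, and Hba-a1 differed from Hba-x at 37. Over the whole coding sequence Hbb-bh1 and Hbb-y were identical at 76.4% of 441 bases, and Hba-x and Hba-a1 at 61.7% of 426 bases. None of the 90-base windows of the Hbb-bh1, Hbb-y or Hba-x transcripts (524, 544 and 712 windows) occurred in another globin transcript, so a read of that length fits 1 embryonic gene only. The adult pairs are different. Hba-a1 (chr11:32283511-32284465) and Hba-a2 (chr11:32296489-32297298) differed at 1 coding base, and so did Hbb-bs (chr7:103826534-103828096) and Hbb-bt (chr7:103812524-103813996). Hba-a2 shared 77.2% of its windows with Hba-a1, and Hbb-bs shared 63.3% with Hbb-bt. A read from a shared window fits both genes of its pair. The counts of the adult genes are therefore uncertain within each pair, and too low where such reads were left uncounted.

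Nearly all globin UMIs came from the 3 embryonic genes, and most came from a small number of cells of replicate 2. Hbb-bh1 had 65 UMIs in 19 cells of replicate 1 and 15138 UMIs in 266 cells of replicate 2. Hbb-y had 659 UMIs in 125 cells and 12623 UMIs in 370 cells. Hba-x had 105 UMIs in 26 cells and 8451 UMIs in 220 cells. Hbb-y was therefore the most counted globin in replicate 1 and Hbb-bh1 in replicate 2. The UMIs were unevenly spread: the 10 cells with most Hbb-bh1 held 61.1% of its UMIs over both replicates, and a single cell held 86.6% of Hbb-y UMIs and 8130 of the 8556 Hba-x UMIs.

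The adult genes had few counted UMIs, and these counts are too low where reads that fit both genes of a pair were left uncounted. Hba-a1 had 11 UMIs in 3 cells, Hba-a2 had 23 UMIs in 4 cells and Hbb-bs had 2 UMIs in 2 cells, all in replicate 2. Hbb-bt had 0 UMIs in 2139 cells, which allows a share of cells with a UMI of up to 0.140%. In replicate 1 each adult gene was at 0 in 678 cells, which allows up to 0.442%. Here and below, the limit for a count of 0 is 3 counts of the total, and limits and intervals cover counting error only.

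That single cell had 21324 globin UMIs among 55919 UMIs in all. It was a control cell of replicate 2 and held 11504 UMIs of Hbb-y, 8130 of Hba-x and 1662 of Hbb-bh1, with 9 of Hba-a1 and 19 of Hba-a2. It also held 78 UMIs of Alas2, which starts heme synthesis in red cells, 20 of Hemgn and 10 of the anion exchanger gene Slc4a1. The platelet gene Gp9 was at 6 UMIs in it and the macrophage gene C1qa at 0. Its globins were 53.9% Hbb-y, 38.1% Hba-x and 7.79% Hbb-bh1, a mixture of all 3 embryonic genes.

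Cells were grouped by markers, with no globin in the rule. A minimum of 2 UMIs per 10000 non-globin UMIs of Gp9 set a megakaryocyte group, of C1qa a macrophage group, of Mpo and Fcgr3 together a myeloid group, and of Gja5 an arterial group. At least 1 UMI each of Gfi1 and Neurl3 set a group in endothelial-to-hematopoietic transition (EHT), the process in which endothelial cells of the embryonic aorta become blood cells. This gave 199, 577, 69, 437 and 241 cells, with 15 cells in more than 1 group and 601 in none, the no marker group. The groups are ranges and not types, and between 72 and 134 cells lay within a factor of 2 of each minimum, or at it. The summed level of the 6 markers listed for each group was at least 25572 CPM in the megakaryocyte group, 4312 in the macrophage group, 5137 in the myeloid group, 5008 in the arterial group and 613 in the EHT group. Each list includes the gene or genes that set its group, so these levels follow in part from the rule. The EHT group was not set apart by its list: over its sums the EHT list was at 613 to 868 CPM, the arterial list at 597 to 1158 and the myeloid list at 119 to 655. The gate left 4 control cells and 0 cKO cells in the megakaryocyte group of replicate 1.

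Hbb-bh1 was the globin of the megakaryocyte group. Its level in the summed cells of a replicate and genotype was 13.2 CPM in control replicate 1 (3 UMIs in 4 cells), 462 in control replicate 2 and 889 in cKO replicate 2. In the arterial group, the endothelial reference, it was at 1.29 and 1.05 CPM in control replicates 1 and 2 and at 1.50 and 1.97 in cKO replicates 1 and 2. The 2 groups did not overlap. In CPM the megakaryocyte mean was 455 ± 438 (SD, n = 3) and the arterial mean 1.45 ± 0.387 (SD, n = 4). In edgeR's quasi-likelihood test on the summed counts, with Benjamini-Hochberg adjustment over all genes, Hbb-bh1 was higher in the megakaryocyte group by 8.58 on the log2 scale, with an approximate SE of 0.91 and an adjusted p of 5.56e-07. In that comparison 59.8% of 11477 genes tested passed an adjusted p of 0.05, 26.7% as higher and 33.1% as lower. Without the sum of 4 cells the difference was 9.03. Replicate 1 held too few of these cells for a value within it, so the difference rests on replicate 2.

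**Figure D1:**
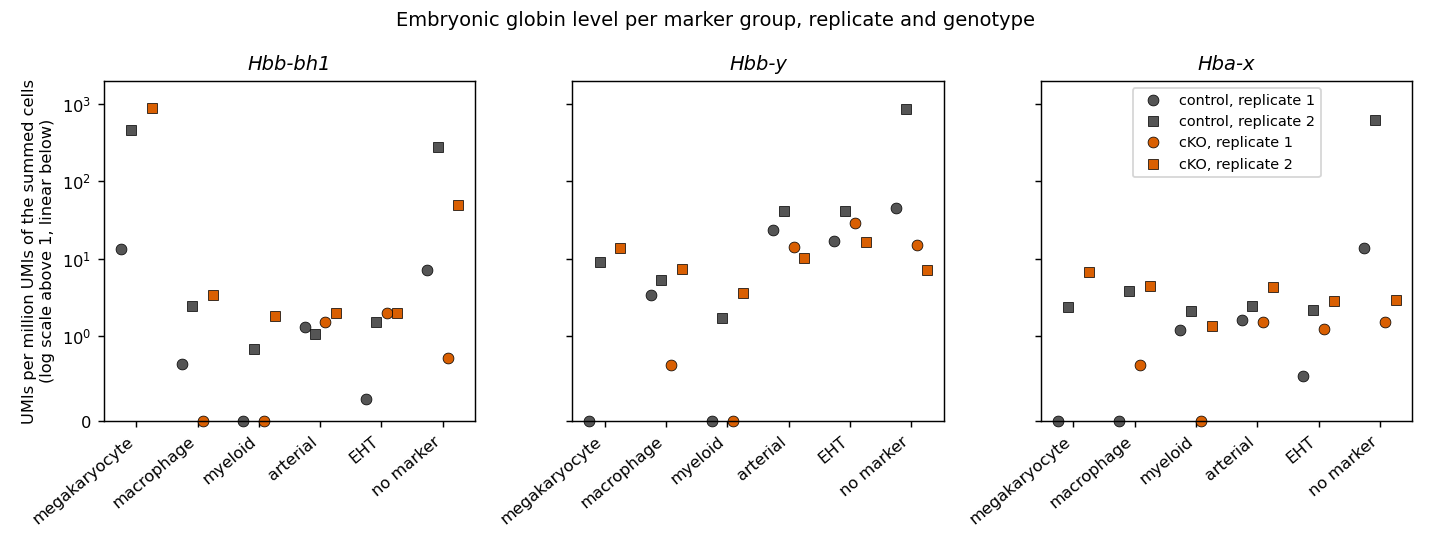
Level of Hbb-bh1, Hbb-y and Hba-x (CPM of the summed cells, log scale above 1 and linear below) in each marker group, with 1 point for each sum of a replicate and genotype (circles replicate 1, squares replicate 2, grey control, orange cKO). Hbb-bh1 stands at 462 and 889 in the megakaryocyte sums of replicate 2 and between 1.05 and 1.97 in the arterial sums. Among the 5 marker groups the mean of Hbb-y is highest in the EHT and arterial groups, although the megakaryocyte sum of cKO replicate 2 (13.6) lies above the arterial one (10.2). The top no marker points for Hbb-y and Hba-x come from the single cell with 21324 globin UMIs.

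Hbb-bh1 was also spread very unevenly within the megakaryocyte group. In replicate 2, 112 of 195 cells (57.4%, exact 95% interval 50.2 to 64.5) had at least 1 UMI, while the median cell held 1 UMI in control cells and 2 UMIs in cKO cells. The highest cells held 1224 and 1256 UMIs. In the arterial group of the same replicate 3.72% of cells had a UMI at a median depth of 24847 UMIs, against 83520 in the megakaryocyte group. After each cell was thinned to 6000 UMIs the shares were 33.3% in the megakaryocyte group, 0.930% in the arterial group, 1.80% in the macrophage group and 3.77% in the EHT group. At equal depth the megakaryocyte share was still the highest of these 4 groups.

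Almost no other globin stood beside Hbb-bh1 in these cells. In replicate 2 Hbb-bh1 made up 97.6% of globin UMIs in control and 97.7% in cKO megakaryocyte-group cells. Hbb-y made up 1.65% and Hba-x 0.645% over both genotypes. Hbb-y was at 0 CPM in the 4 cells of control replicate 1, 8.91 in control replicate 2 and 13.6 in cKO replicate 2, where 1 cell held 75 of 99 UMIs, and Hba-x was at 0, 2.34 and 6.75. Neither gene passed the test against the arterial group (Hbb-y log2 fold change -0.85, edgeR adjusted p = 0.192, and Hba-x 0.99, adjusted p = 0.177). This depended on the gate: both were called as higher at a marker minimum of 1, which admits the cell with most globin (4.52 and 7.26), and Hbb-y was called as lower at a minimum of 4 (-1.66, with Hba-x at -0.071).

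Hbb-y was the globin of the arterial and EHT groups. In the EHT group it was at 17.04 and 40.7 CPM in control replicates 1 and 2 and at 28.6 and 16.2 in cKO replicates 1 and 2. In the arterial group it was at 23.6 and 41.8 in controls and at 14.0 and 10.2 in cKO. The 2 groups overlapped and did not differ beyond their spread (25.6 ± 11.6 against 22.4 ± 14.1 CPM, SD, n = 4; log2 fold change 0.17, approximate SE 0.46, edgeR adjusted p = 0.791). Of all genes tested, 45.2% passed the threshold between these groups, 19.1% as higher and 26.0% as lower in the EHT group.

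Hbb-bh1 and Hba-x were low in both endothelial groups. Hbb-bh1 in the EHT group ranged from 0.262 to 1.98 CPM and Hba-x from 0.524 to 2.83. Hbb-y made up 91.9% of globin UMIs in the EHT group of replicate 1 (exact 95% interval 87.2 to 95.3) and 86.8% in replicate 2 (81.6 to 91.0), and 87.1% and 83.8% in the arterial group. In the cell with most globin it made up 53.9%. The Hbb-y shares of both endothelial groups, genotypes together, lay above that value of 1 replicate 2 cell in both replicates. By genotype, only the interval of the arterial cKO sum of replicate 2 included it (62.0%, 47.2 to 75.3). Among cells at or below the background (defined below) the shares were 81.8% and 70.8% in the arterial group of replicates 1 and 2. In the EHT group they were 80.8% and 67.5%, and the lowest by genotype was 62.5% (43.7 to 78.9), in cKO replicate 1.

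The order of mean Hbb-y in CPM was EHT, arterial, megakaryocyte, macrophage and myeloid. Hbb-y was lower in the macrophage group than in the arterial group (log2 fold change -2.0, approximate SE 0.50, edgeR adjusted p = 0.00196) and lower in the myeloid group (-3.20, approximate SE 0.78, adjusted p = 0.00160). In these comparisons 61.0% and 61.7% of all genes passed the threshold, with 34.2% as lower in each and 26.8% and 27.5% as higher. The macrophage sums were at 3.37 and 5.34 CPM in controls and at 0.653 and 7.31 in cKO, all below the 4 arterial sums. The myeloid sums were at 0 and 1.69 in controls and at 0 and 3.57 in cKO, where the cKO sum of replicate 1 rests on 2 cells. At a marker minimum of 1 neither difference passed (edgeR adjusted p = 0.170 and 0.134).

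**Figure D2:**
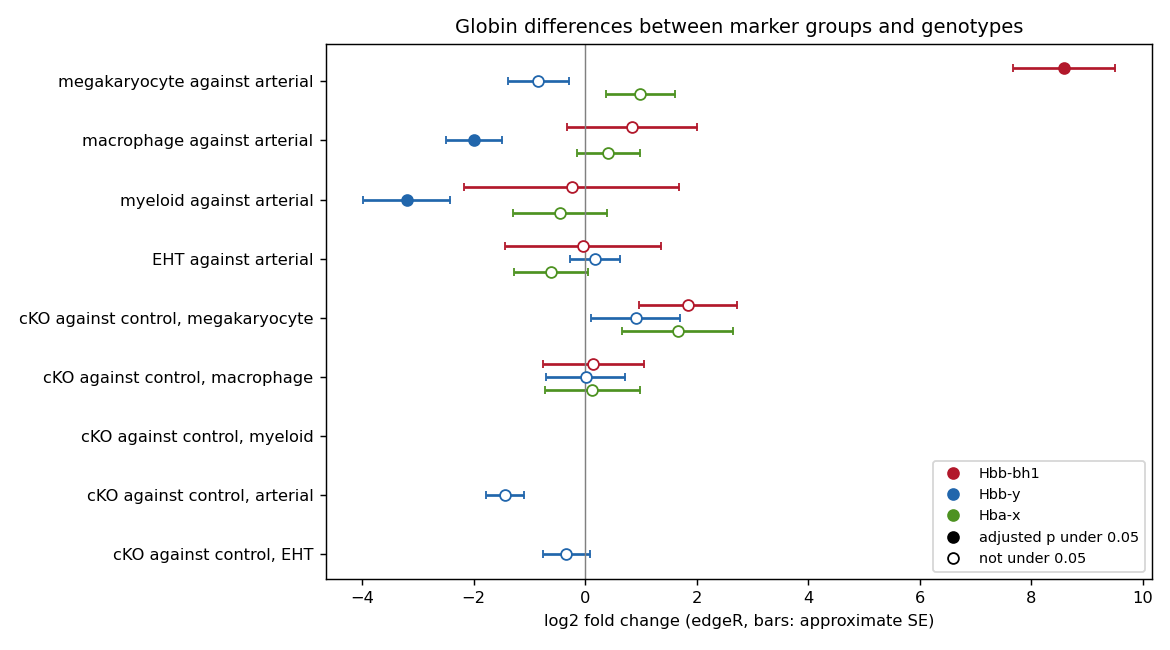
Log2 fold change of the 3 embryonic globins in edgeR's quasi-likelihood test for 4 comparisons between marker groups and for cKO against control within each group (bars are the approximate SE, filled points have an adjusted p under 0.05). Hbb-bh1 in the megakaryocyte group (8.58) and Hbb-y in the macrophage (-2.0) and myeloid (-3.20) groups are filled, and no comparison of genotypes is in these fits without a replicate block.

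Counted per cell and not in CPM, the difference between macrophage and arterial cells was smaller. Macrophage-group cells were deeper, with a median of 55402 UMIs against 24847 in the arterial group of replicate 2. Among cells at or below the background set by arterial cells (below), Hbb-y was at 0.242 UMIs per cell in the macrophage group and at 0.321 in the arterial group of replicate 2. It was at 0.226 in the myeloid group, 0.277 in the megakaryocyte group and 0.524 in the EHT group. In replicate 1 the values were 0.0909 in the macrophage, 0.286 in the arterial and 0.488 in the EHT group. After thinning to 6000 UMIs, Hbb-y was found in 2.40% of macrophage-group, 6.51% of arterial and 12.3% of EHT cells of replicate 2, and before it in 20.6%, 23.3% and 31.1%.

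Macrophage-group and myeloid-group cells held few globin UMIs, which in replicate 2 were a mixture of all 3 embryonic genes. In replicate 1 the macrophage group had only 10 globin UMIs in 77 cells, 7 of Hbb-y, 2 of Hba-x and 1 of Hbb-bh1. Hbb-y made up 70.0% of these (exact 95% interval 34.8 to 93.3). The myeloid group of replicate 1 had 1 globin UMI, of Hba-x. The mixture is therefore shown for replicate 2 only. In replicate 2 the macrophage group had 385 globin UMIs in 500 cells, of which 47.3% were Hbb-y (exact 95% interval 42.2 to 52.4), 30.6% Hba-x (26.1 to 35.5) and 21.8% Hbb-bh1 (17.8 to 26.3). The myeloid group had 27 UMIs in 53 cells, 44.4% Hbb-y, 29.6% Hba-x and 22.2% Hbb-bh1. Hbb-y made up 46.4% in control and 47.9% in cKO macrophage-group cells. The cell with most globin lay outside the macrophage intervals of replicate 2 for each gene, with less Hbb-bh1 (7.79%) and more Hbb-y (53.9%) and Hba-x (38.1%). Red cell genes other than globins were at or near 0 here: Alas2 and Slc4a1 had 0 UMIs in the macrophage group, and Hemgn had 1 UMI. In the myeloid group, by contrast, Klf1 had a UMI in 30.4% of cells and Gata1 in 49.3%, with 112 and 223 UMIs, beside 28 globin UMIs in 69 cells.

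**Figure D3:**
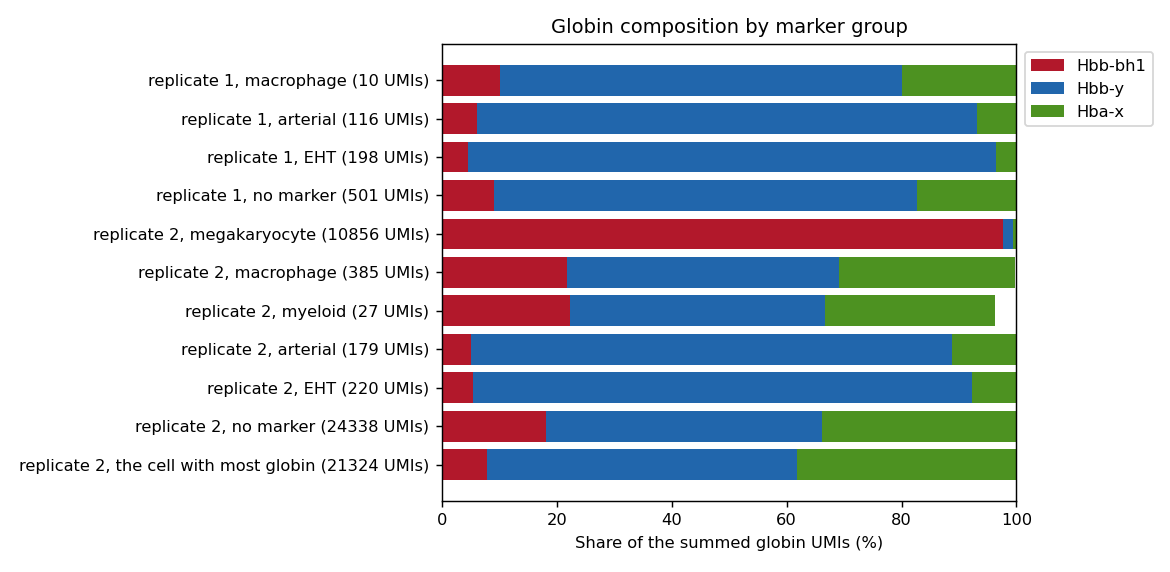
Share of Hbb-bh1, Hbb-y and Hba-x in the summed globin UMIs (%) of each marker group with at least 10 globin UMIs, by replicate, with the cell with most globin at the bottom (the white rest is adult globin). The bar of the megakaryocyte group is 97.7% Hbb-bh1, the arterial and EHT bars are 83.8% to 91.9% Hbb-y, and the macrophage bar of replicate 2 holds 47.3% Hbb-y with 30.6% Hba-x.

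Among cells at or below the background, globin UMIs grew with depth in 3 of 4 sets of cells. In the macrophage group of replicate 2 the mean was 0.329, 0.515 and 0.707 globin UMIs per cell in 3 equal bins of cells from lower to upper depth. In the arterial group of replicate 2 it was 0.306, 0.443 and 0.614, and in replicate 1 it was 0.257, 0.351 and 0.444. The median cell held 0 globin UMIs in each of these bins. In the macrophage group of replicate 1 the means of 0.0385, 0.280 and 0.0769 showed no such order. Over all cells the means were 0.329, 0.566 and 1.41 in the macrophage group of replicate 2, 0.306, 1.31 and 0.889 in the arterial group of replicate 2 and 0.257, 0.351 and 0.959 in that of replicate 1.

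Cells were called above the background where their globin UMIs exceeded the 99th percentile of the arterial group of the same replicate. That limit was 7 UMIs in replicate 1 and 8.72 in replicate 2, and the cells nearest to it held 7 UMIs below and 9 above in both replicates. Of 2139 cells, 100 (4.68%, exact 95% interval 3.82 to 5.66) were above it, 14 in replicate 1 and 86 in replicate 2. They held 68.0% and 97.3% of the globin UMIs of their replicates.

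These cells were concentrated in the megakaryocyte group. It had 58 of 199 cells above the background (29.1%, interval 22.9 to 36.0), all in replicate 2. The no marker group had 22 of 601 (3.66%), the EHT group 9 of 241 (3.73%, interval 1.72 to 6.97), the macrophage group 4 of 577 (0.693%) and the myeloid group 0 of 69, which allows up to 4.35%. The arterial share, 5 of 437 (1.14%), follows from the rule. The shares depend on the limit, which is a UMI count from shallower cells. A Poisson limit around the arterial median of 0 globin UMIs models no background and counts every cell with any globin UMI. The means of that share over sums were 55.9% in the megakaryocyte, 39.0% in the EHT, 26.1% in the arterial, 23.1% in the macrophage and 21.6% in the myeloid group. Among the 58 cells of the megakaryocyte group Hbb-bh1 made up 98.2% of the globin UMIs, and among the 9 EHT cells it was at 0 of 260 UMIs while Hbb-y made up 98.5%. The 4 macrophage-group cells kept the mixture, with 48.1% Hbb-y, 32.6% Hba-x and 19.4% Hbb-bh1.

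At or below the background the megakaryocyte group still held Hbb-bh1. The 137 such cells of replicate 2 had 1.00 UMI of Hbb-bh1 per cell, against 0.0425 in the arterial, 0.117 in the EHT, 0.119 in the macrophage and 0.113 in the myeloid group. With all cells above the background left out, a choice made on the globins themselves, the log2 difference from the arterial group was 3.25 for Hbb-bh1 and -1.65 for Hbb-y, given as a description.

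Single cells with many globin UMIs held 1 gene or a mixture. Of 94 cells with at least 10 globin UMIs, 63 took at least 90% of them from Hbb-bh1 and 19 from Hbb-y, none (0 cells) from Hba-x, and 12 were mixed. All 63 Hbb-bh1 cells were in replicate 2, 50 in the megakaryocyte group, 12 in the no marker group and 1 with more than 1 marker. The 50 cells held between 11 and 1260 globin UMIs, with a median of 88, and together had 9904 UMIs of Hbb-bh1, 46 of Hbb-y and 51 of Hba-x. Of the mixed cells 4 were in the megakaryocyte group, 3 in the macrophage group, 1 in the EHT group and 4 had no marker. This sorting was chosen after the data were seen.

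**Figure D4:**
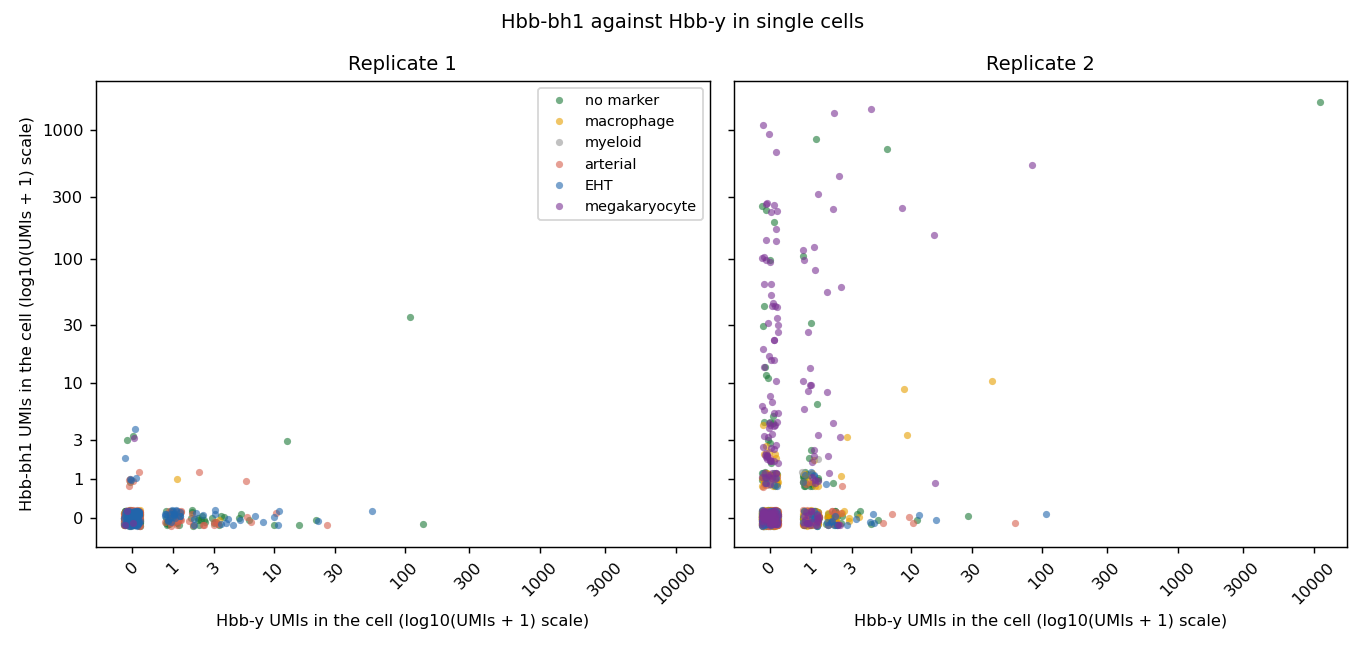
UMIs of Hbb-y (x axis) and Hbb-bh1 (y axis) in single cells, on a log10(UMIs + 1) scale with a small random shift, by replicate and marker group. The 15 cells with more than 1 marker are not drawn. Megakaryocyte-group cells of replicate 2 rise along the Hbb-bh1 axis to 1256 UMIs, arterial and EHT cells run along the Hbb-y axis to 112 UMIs, and the cell at the upper right holds 11504 UMIs of Hbb-y and 1662 of Hbb-bh1.

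The 19 Hbb-y cells came from both replicates and both genotypes. They were 7 cells of the EHT group, 4 arterial cells, 6 cells with no marker, 1 cell of the megakaryocyte group and 1 with more than 1 marker. The 7 EHT cells held 11 to 113 globin UMIs, of which 233 were Hbb-y, 2 were Hba-x and none (0 UMIs) was Hbb-bh1. Gfi1 and Neurl3 in these cells follow from the rule of the group. All 7 also had UMIs of the endothelial gene Cdh5 (median 22) and of Runx1 (median 9), a factor gene of the transition to blood, and no UMI of Klf1, Gata1, Alas2 or Hemgn. The 4 arterial cells held 10 to 62 globin UMIs, and all 4 had UMIs of Cdh5, with a median of 52. The cell with 213 globin UMIs, all of Hbb-y, was a cKO cell of replicate 2 with more than 1 marker. No gene followed Hbb-y closely across these groups: over 357 and 321 arterial and EHT cells of replicates 1 and 2 the highest Pearson r with any of 11190 and 11290 genes was 0.26 and 0.32, the 50 highest genes of the replicates had 0 in common, and r with Hba-x was 0.03 and 0.06. Cells of 1 replicate share a library, and these values are a description.

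In replicate 1 the cell with most globin had 207 globin UMIs, 100 of Hbb-y, 72 of Hba-x and 35 of Hbb-bh1. It was a control cell of the no marker group with 40 UMIs of Cdh5, 18 of Pecam1 and 0 of Alas2. Like the cell with most globin in replicate 2 it held all 3 embryonic genes, in a total of 77153 UMIs.

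The Hbb-bh1 cells of the no marker group also held UMIs of early erythroid genes. The 12 Hbb-bh1 cells of that group held between 11 and 960 globin UMIs. All 12 had UMIs of Klf1, the erythroid transcription factor gene, with a median of 17, of Gata1 with a median of 10 and of the erythropoietin receptor gene Epor with a median of 4. Alas2 was found in 1 of them. The platelet gene Pf4, which set no group, had a median of 4 UMIs, against 1055 in the 50 Hbb-bh1 cells of the megakaryocyte group. In those 50 cells Klf1 had a UMI in 14 and Gata1 in 49.

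A set of 19 no marker cells passed a minimum of 2 UMIs of Klf1 per 10000, a rule chosen after the data were seen. All were in replicate 2, 9 control and 10 cKO, all 19 had Gata1, and 13 had Hbb-bh1. One of the control cells is the cell with most globin. In the 10 cKO cells Hbb-bh1 summed to 690 UMIs (median 17.5) and Hbb-y and Hba-x to 2 UMIs each. In the 9 control cells Hbb-bh1 summed to 1702 UMIs (median 2), of which the cell with most globin held 1662. The 6 control Hbb-bh1 cells of the no marker group held 1939 UMIs, so most control Hbb-bh1 outside the cell with most globin lay in cells under this Klf1 minimum. Replicate 1 had 0 cells above it. In the whole no marker group of control replicate 2, Hbb-bh1 was at 277 CPM with the cell with most globin and at 151 without it, whereas Hbb-y fell from 876 to 6.46 and Hba-x from 618 to 3.34.

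Within the megakaryocyte group, Hbb-bh1 tended to be higher in cells with fewer platelet transcripts. Across the 195 cells of replicate 2 its level, as log2(UMIs per 10000 + 1), was most like that of Slc38a5, an amino acid transporter gene (Pearson r 0.57), Blvrb, a heme-handling reductase gene (0.50), Tnni1 (0.50), Steap3, a ferrireductase gene of red cell iron uptake (0.49), and Prdx2, an antioxidant gene (0.45), among 9808 genes. Hba-x came next with r = 0.44, then Myl12b (0.38), Rpl28 (0.37), Rpsa (0.36) and Asf1a (0.34). Blvrb and Prdx2 were not particular to the megakaryocyte group. Mean Prdx2 was 968 CPM in the arterial and 560 in the megakaryocyte group, and mean Blvrb was 132 in the macrophage and 80.6 in the megakaryocyte group. The r was -0.35 for Pf4 and Ppbp, -0.29 for Gp9 and -0.17 for Gata1. These cells share 1 library, and the r of Slc38a5 was 0.48 in control and 0.63 in cKO cells.

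The split of these cells at 10 UMIs of Hbb-bh1 gives the levels, as a description chosen after the data were seen. The 52 cells with at least 10 UMIs (24 control and 28 cKO) had a median depth of 82511 UMIs and the 143 other cells 85380. Summed over cells, Slc38a5 was at 8.21 against 1.44 CPM, Steap3 at 24.8 against 7.60 and Tnni1 at 129 against 41.3. Ppbp was at 417 against 1526 and Pf4 at 14441 against 24217. Klf1 was at 5.24 against 2.28. Alas2 was found in 5 of the 50 Hbb-bh1 cells. Over all cells and both replicates, genes most like the summed globins included Gm15915 (mean r 0.28), Sla2, Tnni1, Cited4, Tmem14c, Alas2, Itgb3, Tal1 and Cox6b2 (mean r 0.21), and in replicate 1 no r among them exceeded 0.11.

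The wider erythroid program was measured with 46 listed genes of regulators, heme synthesis, the red cell membrane and the red cell cytoplasm, of which 35 were tested. In the megakaryocyte group 23 were higher and 5 lower than in the arterial group, 28 of 35 in all where 59.8% of all genes passed. In the macrophage group 8 were higher and 11 lower, 19 of 35 where 61.0% of all genes passed. In the myeloid group 13 were higher and 9 lower, 22 of 35 where 61.7% passed, and in the EHT group 12 higher and 4 lower, 16 of 35 in all where 45.2% of all genes passed. No test of the lists as sets was run.

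The members of the lists differed between groups. In the megakaryocyte group the regulators Gata1 (168 ± 31.7 CPM, SD, n = 3), Gfi1b and Nfe2 rose, as did 9 of 12 genes of heme synthesis and iron, among them Tmem14c (log2 fold change 3.17) and Cpox (2.67). Epor rose by 4.53 and the carbonic anhydrase gene Car2 by 4.26. Hemgn had 322 UMIs in the megakaryocyte group and 0 in the arterial group. Genes of late red cell maturation were low, with 12 UMIs of Alas2 and 0 of Slc4a1 and Rhag. Sox6 and Bcl11a, known repressors of embryonic globin genes, fell there, with log2 fold changes of -8.71 and -4.28. Low levels of both were not particular to the megakaryocyte group, where their means were 0.0371 and 2.47 CPM. In the macrophage group they were at 0.0867 and 2.10 CPM, beside a mean Hbb-bh1 of 1.63 CPM. A link between these genes and Hbb-bh1 was not tested. In the EHT group Bcl11a rose by 1.48 and Sox6 fell by 2.58, beside an Hbb-y difference of 0.17, and Myb rose by 6.32. The adjusted p of each named change in edgeR was at most 3.82e-08 except for EHT Bcl11a, with 1.39e-06.

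Between genotypes no globin passed in the main fits, which have no replicate block (0 calls). In the arterial group Hbb-y passed with the block, and also without it when low counts were not filtered. No globin could be tested in the myeloid group. There were 2 sums per genotype and 2 against 1 in the megakaryocyte group. The background in these comparisons was 0.0197% of genes called in the megakaryocyte group, 0% in the macrophage and arterial groups, 0.0129% in the myeloid and 0.00971% in the EHT group, where the gene called was Nupr1 (log2 fold change -3.63, edgeR adjusted p = 0.00287). Without adjustment, 40 genes in the macrophage and 117 in the arterial group had a p under 0.05. None of the listed erythroid genes that were tested, 26 to 35 by group, passed in a comparison of genotypes (0 calls in each group).

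Hbb-bh1 in the megakaryocyte group had the largest difference of genotypes among the tested globins. It was at 462 CPM in control and at 889 in cKO cells of replicate 2, the replicate that holds nearly all of these cells. The log2 fold change was 1.84 (approximate SE 0.88, edgeR adjusted p = 1.00), and it includes a control sum of 4 cells. The share of cells above the background was 25.0% in control (exact 95% interval 17.3 to 34.1) and 36.1% in cKO (25.9 to 47.4), intervals that overlap. Without the cells above the background the difference was -0.062, a fit that leaves out 58 cells chosen by their globins.

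Hbb-y in the arterial group was lower in cKO in both replicates. The controls were at 23.6 and 41.8 CPM and the cKO sums at 14.0 and 10.2. The log2 fold change was -1.44 (approximate SE 0.34, edgeR unadjusted p = 0.00293, adjusted p = 1.00). With the replicate as a block, which the shared pools allow, it was -1.47 with an adjusted p of 0.0366, in a fit that called 0.215% of genes, 0.127% as lower. The adjusted p ranged from 0.00127 to 1.00 over all alternatives. Of the 5 arterial cells above the background 4 were control cells, and the control sum of replicate 2 held 1 cell with 62 UMIs of its 119. Without the cells above the background the difference was -0.47.

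Hbb-y in the EHT group went in different directions in the 2 replicates. It was at 17.04 in control and 28.6 in cKO cells of replicate 1, and at 40.7 in control and 16.2 in cKO cells of replicate 2. The log2 fold change was -0.34 (approximate SE 0.41, edgeR adjusted p = 1.00). Of the 9 EHT cells above the background 7 were cKO and 2 control, 5.51% (exact 95% interval 2.24 to 11.03) against 1.75% (0.213 to 6.19), and in control replicate 2 a single cell held 112 of 134 UMIs. In the macrophage group the 3 embryonic globins differed by 0.15 or less on the log2 scale (approximate SE 0.71 to 0.91), and in the myeloid group no globin had enough counts to be tested.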

How the data were processed

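The authors aligned 10x Chromium V3 reads with Cell Ranger 5.0.1 (mm10 in the submitters' processing notes), kept hashtag singlets (Seurat) and gave each cell a WT or KO label. The deposited values are UMI counts without normalization. Of 2139 deposited cells, 101 were outside the study's stated limits (1800 genes, 6000 UMIs, 5% mitochondrial reads), and all were kept. No doublet caller was run here.

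Marker groups were summed per replicate and genotype (19 sums), since cells are not replicates, and tested with edgeR 4.0.16 in R 4.3.3 (TMM, filterByExpr, quasi-likelihood test, Benjamini-Hochberg adjustment over all genes, threshold 0.05). The SE was derived from the test statistic. The scripts were tested on simulated data. The members, lists and tests were chosen with earlier results of these data known, and the genes named are the members, the listed erythroid and marker genes, Nupr1, genes among the 10 most like the summed globins, and genes most like Hbb-bh1, added after seeing the data. Replicate numbers pair the sums, because both genotypes of a number share 1 pool. Deviations of paired sums correlated over 10625 genes with r = 0.44 in the macrophage, 0.14 in the myeloid, 0.36 in the arterial and 0.22 in the EHT group. Sequences and coordinates are from GENCODE M21. Ahsp and Epb42 were not analysed here. Some listed genes were counted with their lists and are not reported here by name.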

Additional observations from a re-analysis of the deposited data

Results flagged for a closer look

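Hba-x, the embryonic alpha-type globin, differed between genotypes in opposite directions in different marker groups, in both replicates. The difference of cKO minus control was 0.698 and 0.706 CPM in replicates 1 and 2 of the EHT group, and 0.653 and 0.711 in the macrophage group. It was -1.18 and -0.776 in the myeloid group. In the arterial group it was -0.120 and 1.80. The difference between the groups was not tested, and the counts are small: the myeloid sums held 0 to 5 UMIs, those of replicate 1 held 0 and 2 in the macrophage and 2 and 5 in the EHT group.

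Hbq1b, a theta-type globin gene outside the 7 genes of the report, had 7 UMIs in 4 cells of replicate 2 and 0 in replicate 1. The cell with most globin held 4 of the 7 UMIs. Hbb-bh2 and Hbq1a were at 0 in both replicates.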

How the results depend on the processing

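Hbb-bh1 was called higher in the megakaryocyte than in the arterial group under every alternative run, with log2 fold changes from 3.25 to 9.07. Against 1 globin called in that comparison, 3 were called at a marker minimum of 1 (which admits the cell with most globin), 2 at a minimum of 4 and 2 without the cells above the background. For Hbb-y and Hba-x there, the minimum of 1 gave 4.52 and 7.26 and the minimum of 4 gave -1.66 and -0.071. At the minimum of 1 the calls of Hbb-y fell to 0 in the macrophage and 0 in the myeloid comparison (adjusted p = 0.170 and 0.134 in edgeR), and the megakaryocyte group held 101.3 globin UMIs per cell.

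In the genotype comparison of the arterial group, 1 globin (Hbb-y) was called with the replicate block, 1 with no filter on low counts and 0 to 1 when a sum was left out, the 1 being without cKO replicate 1. There the log2 fold change of Hbb-y ran from -1.79 to -0.97. The replicate block changed no other call of a globin, and no paired analysis was possible in the megakaryocyte group because it had 3 sums.

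With a Poisson limit around the arterial median of 0, any globin UMI puts a cell above the limit. That share was 55.9% in the megakaryocyte, 23.1% in the macrophage, 21.6% in the myeloid, 26.1% in the arterial and 39.0% in the EHT group. With the macrophage percentile as the limit, the share above it was 1.33%, 3.35% and 6.95% in the macrophage, arterial and EHT groups. These shares and the next values are unweighted means over the sums. Without the cells above the background the EHT group held 0.692 globin UMIs per cell (1.77 with them), Hbb-y was 72.7% of its globin (88.6%) and Hbb-bh1 was 80.5% of that of the megakaryocyte group (98.4%), where the 4-cell sum with 3 UMIs counts as 100%. Pooled over cells that last share was 71.1%. Leaving out these cells selects on the globins tested.

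Differences that did not pass the test changed sign as follows. Myeloid against arterial, Hbb-bh1 was 0.98 and 0.55 at minimums of 1 and 4, and Hba-x was 0.026 at 1. EHT against arterial, Hbb-bh1 was 0.16 with the replicate block, 0.17 and 0.20 at minimums of 1 and 4, 0.0054 within the study's limits, 0.012 without cells above the background and from -0.23 to 0.27 leaving out a sum, and Hbb-y was -0.53 without cells above the background and from -0.027 to 0.37 leaving out a sum. cKO against control in the megakaryocyte group, Hbb-bh1 was -0.062 and Hbb-y -0.18 without cells above the background, Hbb-y was -5.56 and -0.96 at minimums of 1 and 4, and Hba-x was -6.05 at 1. In the macrophage group, Hbb-bh1, Hbb-y and Hba-x were -0.25, -0.56 and -0.31 without cells above the background, Hbb-y was -0.070 with DESeq2 and -0.018 and -0.065 at minimums of 1 and 4, and leaving out a sum gave -0.14 to 1.78 for Hbb-bh1, -2.92 to 0.63 for Hbb-y and -2.17 to 7.28 for Hba-x, where the 7.28 is a fitted value against a control sum with 0 UMIs and no measure of size. In the EHT group, leaving out a sum gave -0.83 to 0.43 for Hbb-y. The causes were not tested.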
